A study of Mus musculus with 22 samples.

Results

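The tumor suppressor p53 and 34 of its known direct target genes were followed in mouse embryonic stem cells (ESCs). The 35 genes were chosen by name as Trp53, the gene of p53, and targets that act in cell cycle arrest and feedback (12 genes with Trp53), in apoptosis (13), in DNA repair and nucleotide supply (4) and in stress, metabolism and other roles (6). The choice was made with earlier results of these data known. All 35 were present among the 44749 genes and repeat families of the count table, and all 35 were tested in each comparison. RNA was sequenced from feeder-free male ESCs of the 129 mouse strain kept in serum and LIF. In the Ythdc1 set, 4 libraries of Ythdc1 conditional knockout (cKO) cells treated with 4OHT were set against 4 treated with DMSO. Ythdc1 binds m6A, a methyl mark on RNA, inside the nucleus. 4OHT switches on Cre recombinases that are fused to a modified estrogen receptor. In the Mettl3 set, 2 Mettl3 KO libraries were set against 2 WT libraries, Mettl3 being the catalytic subunit of the m6A writer. In the Dux set, every library came from Ythdc1 cKO cells, labelled Dux-KO, Dux-Het or without a Dux label. It held 2 Dux-KO libraries under 4OHT and 2 under DMSO, 2 Dux-Het libraries under each treatment, and 1 library with no Dux label under each. Dux drives genes that are active in the two-cell embryo. Titles name 2 cKO ESC lines in the Ythdc1 set, but the count columns carry no line, and the sources used here give neither the time after 4OHT nor the Cre transgene.

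p53 is a transcription factor that is made and degraded continuously in unstressed cells. When DNA damage, nucleolar stress or other signals slow its degradation by the ubiquitin ligase Mdm2, p53 accumulates as protein and binds response elements near its targets. Mdm2 is itself a target, which closes a feedback loop. Cdkn1a encodes p21, an inhibitor of cyclin-dependent kinases, and through p21 and the DREAM repressor complex p53 also lowers many cell cycle genes. Other targets open the mitochondrial and death receptor routes to apoptosis, and others serve DNA repair and metabolism. ESCs carry abundant p53 and have a short G1 phase. RNA levels of Trp53 do not report p53 protein, which was not measured here.

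A p53 response element is made of a pair of half-sites of 10 bases each. Promoters from 250 bases before to 50 bases after annotated starts were read from RefSeq on GRCm38.p6 for 26 of the 35 genes. They were searched for the p53 consensus site, with 0 or 1 base between the half-sites and the core C and G of each half-site kept. The consensus reads the same on both strands, so 1 search covered both. A site with at most 1 mismatch lay in 3 of the 26 genes (11.5%), against 0.13% of 27025 genes with a promoter. With up to 3 mismatches the counts were 12 of 26 (46.2%) and 3.27%, and an exact half-site lay in 13 of 26 and in 9.55% of genes. Binding by p53 is part of why these genes are known as targets, so the shares are a description and no test was made. The best matches are shown because they stand in an arrest gene, a feedback gene and a mitotic gene whose values follow, with the 20-base site in capitals and each promoter written 5′ to 3′ on the strand of its gene. The Cdkn1a window (chr17:29090729-29091028, plus strand) holds its site at position -51 from the upstream of its starts, the Ccng1 window (chr11:40755237-40755536, minus strand) at position -195, and the Gtse1 window (chr15:85859696-85859995, plus strand) at position -1.
Cdkn1a: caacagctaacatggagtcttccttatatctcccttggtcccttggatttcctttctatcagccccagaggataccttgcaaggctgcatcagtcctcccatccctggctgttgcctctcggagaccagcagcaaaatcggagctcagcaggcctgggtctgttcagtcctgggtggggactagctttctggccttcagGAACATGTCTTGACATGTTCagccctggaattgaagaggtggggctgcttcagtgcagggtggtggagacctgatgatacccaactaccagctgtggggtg
Ccng1: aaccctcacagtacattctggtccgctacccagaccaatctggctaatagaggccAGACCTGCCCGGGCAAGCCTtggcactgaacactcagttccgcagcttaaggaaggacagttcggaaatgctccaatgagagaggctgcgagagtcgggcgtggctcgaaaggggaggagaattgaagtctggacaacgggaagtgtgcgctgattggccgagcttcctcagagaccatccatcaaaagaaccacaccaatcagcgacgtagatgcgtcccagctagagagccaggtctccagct
Gtse1: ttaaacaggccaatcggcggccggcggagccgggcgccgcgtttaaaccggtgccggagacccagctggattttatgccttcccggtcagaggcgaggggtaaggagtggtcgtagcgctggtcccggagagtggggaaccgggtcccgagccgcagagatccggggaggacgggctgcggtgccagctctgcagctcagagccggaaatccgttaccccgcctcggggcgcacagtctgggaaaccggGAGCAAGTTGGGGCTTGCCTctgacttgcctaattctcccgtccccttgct
Sites with 2 mismatches lay in Trp73, Bax, Ckap2 and Zfp365, and sites with 3 in Trp53, Abcb1b, Bbc3, Aen and Sesn1. A match here says that the letters are present, and no match says only that they are not in these 300 bases. Mdm2 is known to be driven by p53 from an intronic promoter.

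Total counts ran from 24955414 to 54139132 per library. Levels are given as CPM, counts relative to the library total, with 1 scaling over all 22 libraries. Replicates of each group differed by more than counting error, with chi-square per degree of freedom from 3.741 to 99.07. DMSO library 1 of the Ythdc1 set stood apart from the others of its group (30.97 to 37.05 against 8.441 to 10.82), and the pair of Dux-KO DMSO libraries differed most. Ythdc1 itself had 63.4, 49.5, 61.2 and 52.2 CPM under 4OHT against 82.2, 71.9, 75.1 and 79.3 CPM under DMSO, and it fell by 0.41 on the log2 scale (adjusted p = 0.00064, edgeR). It was not called lower in the Dux-KO (log2 fold change -0.09, adjusted p = 0.843) or Dux-Het cells (-0.28, adjusted p = 0.456). In the Mettl3 set Ythdc1 was higher in KO, at 135.8 to 154.5 CPM against 80.8 to 83.5 CPM in WT (log2 0.82, adjusted p = 0.000236, edgeR). Mettl3 had 14.6 and 28.5 CPM in the libraries labelled KO and 28.7 and 29.9 CPM in WT (adjusted p = 0.207, edgeR), so KO library 2 was close to WT. Of the exon bases of Mettl3, 18.4% lie opposite exons of Tox4, and it is not known whether counting used strand. The sources used here do not say which exons are deleted, so these whole-gene levels are a limited check of the labels. Duxf3, the name of Dux in the table, was at 0.020 to 0.090 CPM in Dux-KO under 4OHT and at 0.92 to 1.55 CPM in Dux-Het under 4OHT. No 4OHT-treated cells without the conditional allele were analysed here, so loss of Ythdc1 and 4OHT itself cannot be told apart.

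In the Ythdc1 set, p53 target RNAs rose broadly under 4OHT while the RNA of p53 did not. Of the 35 genes, 30 were higher, where 23.7% of all 24385 entries tested were higher, and 3 were lower, where 21.4% were (45.1% called in all). A gene was called when its Benjamini-Hochberg adjusted p in edgeR's quasi-likelihood test over all entries was under 0.05. The median log2 fold change was 0.947 over the 35 genes and 0.0158 over all entries tested. The summed level of the 35 genes was 3607 to 4027 CPM under 4OHT and 1880 to 2155 CPM under DMSO. The counts of 30 and 3 did not move when any 1 of the 8 libraries was left out. In bulk RNA, a change in the share of cells that express a gene and a change in RNA per cell cannot be told apart.

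Trp53 stood at 234, 243, 235 and 232 CPM under 4OHT and at 278, 257, 246 and 225 CPM under DMSO. The groups overlapped, and the log2 fold change was -0.05 (95% interval -0.179 to 0.0733, adjusted p = 0.504, edgeR). Mdm2 had 365, 322, 312 and 369 CPM under 4OHT, against 119.9, 95.9, 83.1 and 90.7 CPM under DMSO. Every 4OHT library was above every DMSO library, and the fold change was 3.61 (log2 1.85, SE 0.0921, adjusted p = 5.11e-10). DMSO library 1, which stood apart, held the highest DMSO level of Mdm2, and it also had the highest two-cell-like marker sum of the DMSO libraries (55.9 CPM, against 12.2 to 23.9 CPM in the other 3). Per kilobase of exon, Trp53 averaged 58.3 CPM under 4OHT and 62.2 CPM under DMSO, where it had the highest mean level per kilobase of the 35 genes. Mdm2 averaged 67.3 CPM per kilobase under 4OHT and 19.2 under DMSO.

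The other arrest and feedback genes all rose, so that 11 of the 12 genes of this group were higher. Cdkn1a (p21) had 157, 142, 155 and 174 CPM under 4OHT and 79.3, 74.6, 78.4 and 71.1 CPM under DMSO, a 2.12-fold rise (log2 1.09, SE 0.0657, adjusted p = 3.35e-09, edgeR). Ccng1, cyclin G1, which acts with the phosphatase PP2A on Mdm2, had 365, 355, 346 and 406 CPM under 4OHT, against 176, 167, 144 and 161 CPM under DMSO. Its fold change was 2.33 (SE of log2 0.0672), and the groups did not overlap. The largest log2 fold changes of the group were 2.74 for Ptprv, a tyrosine phosphatase induced by p53 in mouse cells, and 2.21 for Trp73, the p53 relative p73. Trp73 had 23.1, 17.3, 18.3 and 20.9 CPM under 4OHT and 4.89, 4.64, 4.83 and 3.22 CPM under DMSO. The stress kinases Plk2 and Plk3 rose by 1.84 and 1.58 on the log2 scale, and Btg2, an antiproliferative gene, by 0.91. The smallest rises were those of Ckap2, a spindle protein (0.69), Gtse1, a mitotic protein that moves p53 out of the nucleus (0.64), and Zmat3, an RNA-binding zinc finger protein (0.64). Of the 3 genes with the sites printed above, Cdkn1a and Ccng1 more than doubled and Gtse1 rose 1.56-fold. In this group Mdm2, Plk2, Plk3 and Btg2 rose without a match in their 300 bases. Trp73 and Ckap2 (sites with 2 mismatches) rose too, and Trp53 (3 mismatches) was not called. A link between sites and response was not tested.

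All 13 apoptosis genes rose, by very different amounts. Fas, the death receptor, had 2.13, 2.95, 1.91 and 2.91 CPM under 4OHT and 0.198, 0.285, 0.154 and 0.440 CPM under DMSO. It had the lowest DMSO level per kilobase of the 35 genes (0.131 CPM) and the largest fold change, 9.38 (log2 3.23, SE 0.329, adjusted p = 8.54e-07, edgeR). Perp, a tetraspan membrane protein, had 162, 139.5, 118 and 163 CPM under 4OHT and 34.4, 27.5, 18.7 and 32.0 CPM under DMSO, a 5.32-fold rise. By contrast the pore-forming Bax had 68.6, 66.3, 66.9 and 69.2 CPM under 4OHT and 53.1, 45.1, 48.4 and 43.0 CPM under DMSO, which is 1.47-fold (log2 0.56, SE 0.068). Bbc3 (Puma), which frees Bax from its inhibitors, rose only 1.35-fold (log2 0.43, adjusted p = 0.000492), and Pmaip1 (Noxa), of the same family of activators, 2.23-fold. The 4OHT and DMSO libraries of these 5 genes did not overlap. Among the remaining 8, log2 fold changes were 1.12 for Phlda3, an inhibitor of Akt, and 1.09 for Trp53inp1, a stress protein of apoptosis and autophagy. They were 0.95 for Eda2r, a TNF-family receptor for an ectodysplasin ligand, 0.93 for Pidd1, a scaffold that activates caspase-2, and 0.90 for Apaf1, the core of the apoptosome. The nuclease Aen (0.78), the TRAIL receptor Tnfrsf10b (0.63) and the endoplasmic reticulum protein Ei24 (0.55) rose least of these 8.

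Of the 4 DNA repair genes 1 rose and 2 fell, where 23.7% of all entries rose and 21.4% fell. With 4 genes, these counts do not show how repair genes move as a group. Polk, a polymerase that copies past damaged bases, rose, with 54.1, 52.6, 52.4 and 62.5 CPM under 4OHT and 27.1, 31.6, 27.9 and 28.5 CPM under DMSO (1.98-fold, adjusted p = 5.77e-08, edgeR). Xpc, which recognises damage for nucleotide excision repair, had 25.3, 26.2, 27.5 and 25.3 CPM under 4OHT against 35.4, 33.5, 35.1 and 32.3 CPM under DMSO. All 4OHT libraries lay below all DMSO libraries, and Xpc fell by 0.35 on the log2 scale (SE 0.070, adjusted p = 0.000716). Ddb2, its partner in damage recognition and a p53 target best known from human cells, had 11.97, 14.0, 13.4 and 11.4 CPM under 4OHT and 18.1, 21.4, 24.2 and 22.7 CPM under DMSO. It fell by 0.73 on the log2 scale (adjusted p = 3.62e-05), but 23.8% of its exon bases lie opposite exons of Acp2, and the sources used here do not say whether counting used strand. Rrm2b, the p53-inducible ribonucleotide reductase subunit, was not called (log2 fold change 0.15, 95% interval -0.12 to 0.423).

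Of the 6 stress and other genes, 5 rose and Sesn1 fell. The sestrins restrain mTORC1 when amino acids are scarce, and their members moved in opposite directions. Sesn2 had 100.1, 90.02, 87.8 and 98.2 CPM under 4OHT and 52.9, 36.3, 33.4 and 37.1 CPM under DMSO (log2 1.28, adjusted p = 1.18e-07, edgeR). Sesn1 had 5.96, 6.58, 7.76 and 5.38 CPM under 4OHT and 7.26, 12.5, 12.2 and 12.2 CPM under DMSO, and it fell by 0.74 on the log2 scale (adjusted p = 0.00185). The Sesn1 groups overlapped through DMSO library 1. Ddit4l, another mTORC1 inhibitor, rose by 2.35 on the log2 scale, the zinc finger gene Zfp365 by 2.04 and Abcb1b, a P-glycoprotein drug transporter, by 1.92. Of the 75-base stretches of Abcb1b transcripts, 8.13% also occur in other genes, Abcb1a above all, so its counts are less certain. The stress cytokine Gdf15 was rare, at 4.42, 3.89, 4.14 and 3.10 CPM under 4OHT and 1.95, 2.38, 2.75 and 2.26 CPM under DMSO (log2 0.78, adjusted p = 0.00198).

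**Figure D1:**
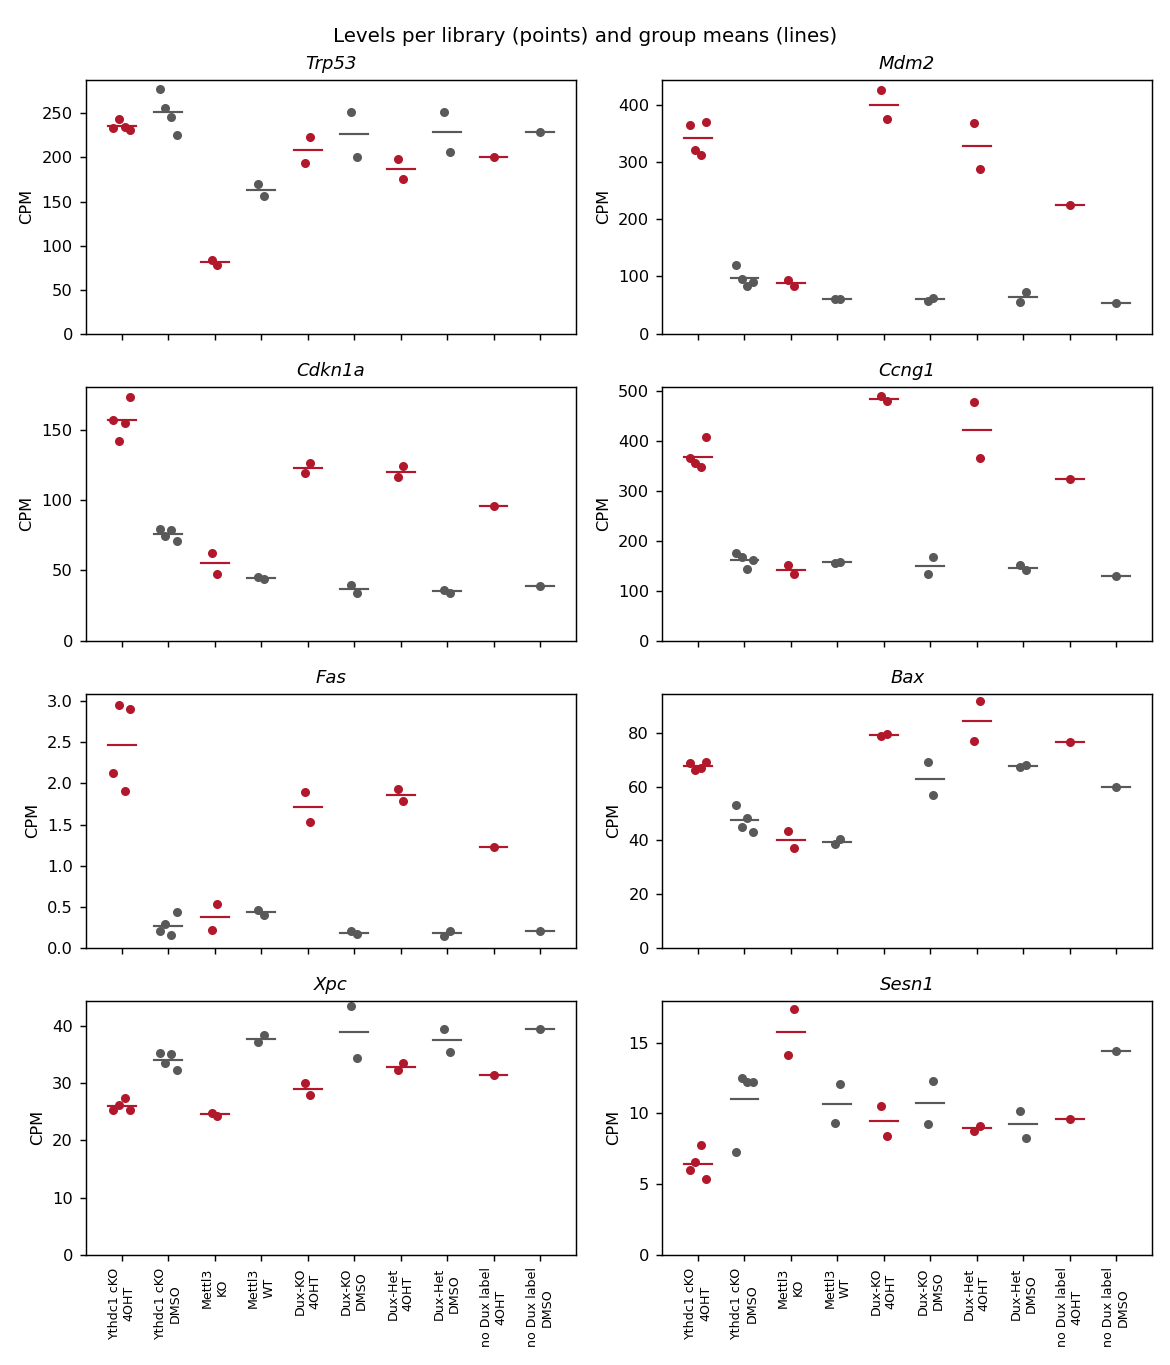
Level in CPM (vertical axes, from 0) of 8 of the genes in each of the 22 libraries (points) with group means (lines), 4OHT or KO in red and DMSO or WT in grey. Mdm2, Cdkn1a, Ccng1 and Fas are higher in all 4OHT libraries than in the DMSO libraries of the same set, while Trp53 is lowest in the 2 Mettl3 KO libraries (78.5 and 83.8 CPM).

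The Dux set asked whether the response to 4OHT depends on Dux. In Dux-KO cells 29 of the 35 genes were higher under 4OHT and 0 lower, where 5.50% of 29322 entries were higher and 4.36% lower (9.86% called in all). In Dux-Het cells 27 were higher and 0 lower, where 4.99% and 4.34% were (9.34% in all). The median log2 fold change was 1.23 in both genotypes, against 0.0533 and 0.0371 over all entries. The Dux-KO count was 15 and 16 without 4OHT libraries 1 and 2 of that genotype and 19 without its DMSO library 1, and the Dux-Het count ran from 20 to 27 when each of the 10 libraries was left out. Summed levels were 3521 to 3742 CPM under 4OHT and 1510 to 1514 CPM under DMSO in Dux-KO cells, and 3496 to 3589 CPM under 4OHT and 1546 to 1619 CPM under DMSO in Dux-Het cells.

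In the arrest group 11 of 12 genes rose in each genotype, all but Trp53. Mdm2 had 425.0 and 374 CPM under 4OHT and 57.6 and 62.3 CPM under DMSO in Dux-KO cells (6.65-fold, adjusted p = 2.59e-05, edgeR). In Dux-Het cells it had 369 and 288 CPM under 4OHT and 55.6 and 72.3 CPM under DMSO (5.14-fold, adjusted p = 4.78e-05). The treatments did not overlap in either genotype. Cdkn1a had 119.6 and 127 CPM under 4OHT and 39.4 and 33.6 CPM under DMSO in Dux-KO cells (3.37-fold), and 116 and 125 CPM under 4OHT and 36.2 and 33.9 CPM under DMSO in Dux-Het cells (3.44-fold). Trp73, at 29.2 and 26.9 CPM in Dux-KO and 25.9 and 19.04 CPM in Dux-Het cells under 4OHT, was at 3.23 to 4.01 CPM in the 4 DMSO libraries of these genotypes. Trp53 was again not called, with log2 fold changes of -0.12 in Dux-KO (95% interval -0.49 to 0.242) and -0.29 in Dux-Het cells (-0.654 to 0.0782).

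Among the apoptosis genes 12 of 13 rose in Dux-KO and 10 of 13 in Dux-Het cells. Fas had 1.89 and 1.53 CPM under 4OHT and 0.202 and 0.164 CPM under DMSO in Dux-KO cells, and 1.94 and 1.79 CPM under 4OHT and 0.141 and 0.208 CPM under DMSO in Dux-Het cells. Its log2 fold changes were 3.23 and 3.40 in Dux-KO and Dux-Het cells, with wide SEs (0.414 and 0.408). Bax was called in neither genotype (log2 0.33, adjusted p = 0.194 in Dux-KO, and 0.32, adjusted p = 0.222 in Dux-Het, edgeR). Bbc3 and Pmaip1 passed in Dux-KO (adjusted p = 0.0407 and 0.0293) and not in Dux-Het cells (0.12 and 0.0876). Their difference between genotypes was 0.20 for Bbc3 and 0.25 for Pmaip1 on the log2 scale, with 95% intervals from -0.385 to 0.779 and from -0.445 to 0.951. In repair, Polk rose in both (log2 1.51 and 1.53 in Dux-KO and Dux-Het cells), while Xpc, Ddb2 and Rrm2b were called in neither. Of the stress genes all but Sesn1 rose in both genotypes.

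The change under 4OHT was not called different between the genotypes for any of the 35 genes. The difference, Dux-KO effect minus Dux-Het effect, ran from -0.33 for Ptprv to 0.37 for Mdm2 on the log2 scale, and its median was 0.0115. The 95% interval lay within 1 log2 unit either side of 0 for 33 genes, the exceptions being Fas (-1.49 to 1.15) and Trp73 (-0.289 to 1.02). Over all 29322 entries 0% were called in this difference by edgeR, with 481 at an unadjusted p under 0.05, and DESeq2 called 2. Of 19 two-cell-like markers, 18 were tested and 0 were called in this difference by edgeR, although its median was -3.2 for them. The lack of a call therefore does not show an equal response. Under 4OHT, Dux-KO against Dux-Het, 0 of the 35 genes were called, where 0.276% of entries were, 0.273% lower and 0.00341% higher. The differences then ran from -0.42 (Perp) to 0.32 (Trp73), and none of the 35 genes had an unadjusted p under 0.05, as 873 entries did. Under DMSO 0 of the 35 were called, where 0.0341% of entries were. There 1 gene, Pmaip1, had an unadjusted p under 0.05 (log2 -0.51, 95% interval -1.01 to -0.0136), as 757 entries did. DESeq2 called 17 entries under DMSO.

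**Figure D2:**
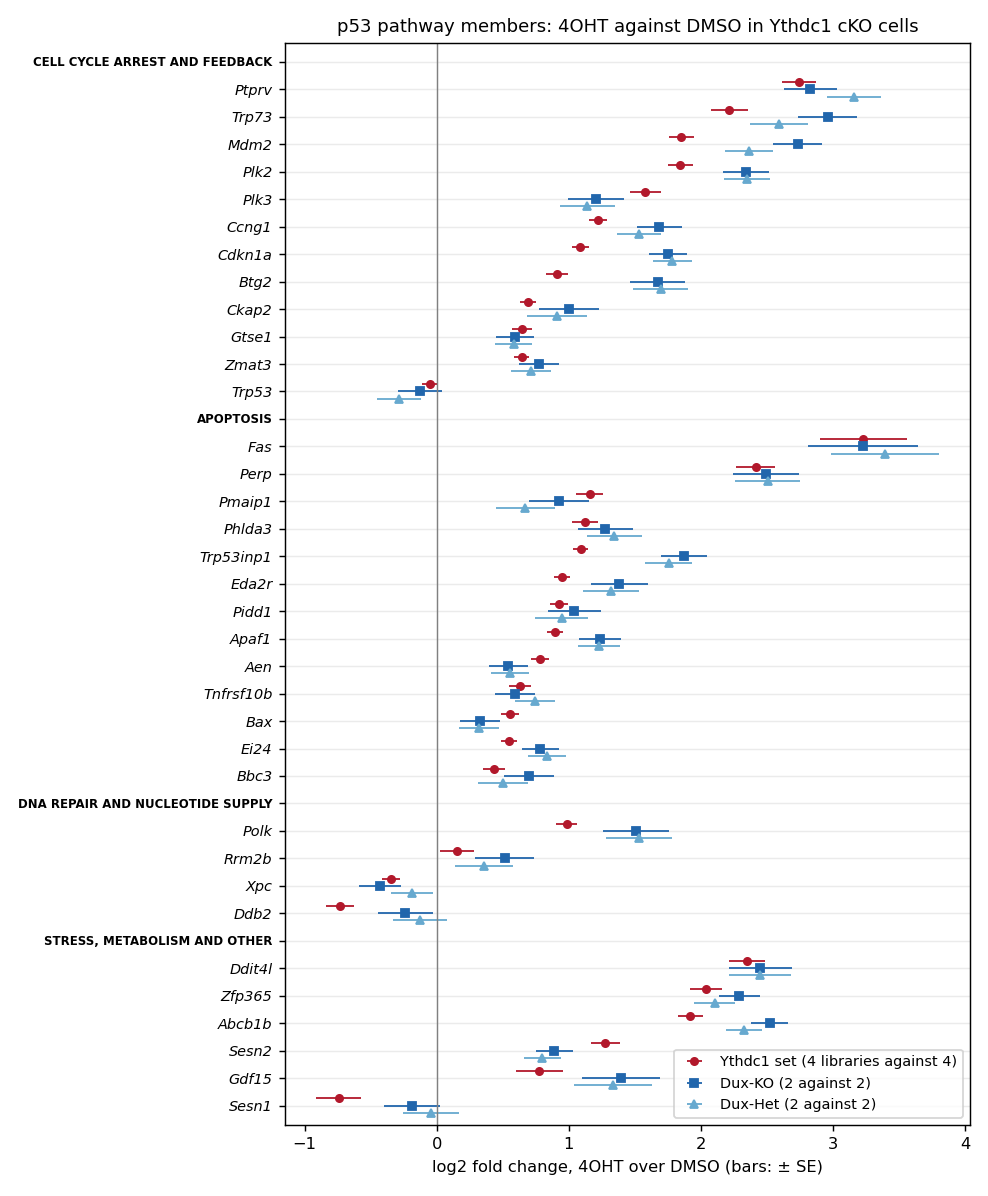
Log2 fold change of the 35 genes, 4OHT over DMSO (horizontal axis, bars ± SE), by role, in the Ythdc1 set (circles), Dux-KO (squares) and Dux-Het cells (triangles). Trp53, Xpc, Ddb2 and Sesn1 lie at or below 0 in all 3, and Fas, Ptprv, Perp, Ddit4l, Zfp365 and Trp73 lie above 2 in all 3.

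Pooled over the 10 libraries of the Dux set with the Dux label as a covariate, 31 of the 35 genes were higher and 1 lower, where 20.2% and 16.2% of entries were (36.4% in all). Here Bax (log2 0.33, adjusted p = 0.0065, edgeR) and Rrm2b (0.41, adjusted p = 0.0195) were higher and Xpc lower (-0.31, adjusted p = 0.0165). Xpc lost that call without Dux-KO 4OHT library 2 or without either library that has no Dux label. Rrm2b lost its call without Dux-Het 4OHT library 1, Dux-KO 4OHT library 2 or Dux-KO DMSO library 1 (adjusted p up to 0.0602). In the pair with no Dux label, with 1 library per treatment and no test, the median log2 ratio of the 35 genes was 0.87, against 0.0293 over 31864 entries. At least 2-fold higher were 15 of the 35, where 3.32% of entries were, and 0 were at least 2-fold lower, where 1.09% were. Mdm2 had 225 CPM under 4OHT and 54.4 CPM under DMSO in this pair (95% Poisson intervals 220.9 to 229.7 and 52.1 to 56.8, for counting error alone). Cdkn1a had 95.7 CPM under 4OHT and 38.7 CPM under DMSO, and Pmaip1 13.2 and 12.4 CPM.

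The size of the response was then compared between the Ythdc1 set and the mean of Dux-KO and Dux-Het. Of the 35 genes 4 responded less in the Ythdc1 set and 0 more, where 0.522% and 0.854% of 31020 entries did (1.38% in all). The 4 were Btg2 (difference -0.75), Trp53inp1 (-0.71), Mdm2 (-0.68) and Cdkn1a (-0.66, adjusted p = 0.0065, edgeR). Trp53inp1 had 498 and 421 CPM under 4OHT in Dux-KO and 413 and 425 CPM in Dux-Het cells, against 106 to 145 CPM in their 4 DMSO libraries. In the Ythdc1 set it had 295, 261, 264 and 273 CPM under 4OHT and 128, 138, 134 and 127 CPM under DMSO. Cdkn1a was higher in the Ythdc1 set under both treatments. It had 71.1 to 79.3 CPM in the DMSO libraries of the Ythdc1 set and 33.6 to 39.4 CPM in those of Dux-KO and Dux-Het. Under 4OHT it had 142 to 174 CPM in the Ythdc1 set and 116 to 127 CPM in Dux-KO and Dux-Het. Mdm2 also had a higher DMSO mean in the Ythdc1 set (97.4 CPM, against 60.0 in Dux-KO and 63.9 in Dux-Het). Its 4OHT means were 342 CPM in the Ythdc1 set, 399.6 in Dux-KO and 328 in Dux-Het. The labels do not say whether the sets were made together, and set and cell line cannot be told apart. With the library number as a block 1 gene responded more, Sesn2 (0.47, adjusted p = 0.0481), and 5 less, Abcb1b being added (-0.48, adjusted p = 0.0265). Cdkn1a and Trp53inp1 were called in all 18 fits with a library left out, Btg2 in 13 and Mdm2 in 10. The count of 4 fell to 2 without Dux-Het 4OHT library 1, Dux-KO 4OHT library 1, Ythdc1 set 4OHT library 2 or DMSO library 4, and it was 7 without Dux-Het DMSO library 2.

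The Mettl3 set asked whether loss of the m6A writer moves the same genes. In the libraries labelled Mettl3 KO 9 of the 35 genes were higher and 4 lower, where 16.4% and 14.9% of 23977 entries were (31.2% in all), and the median log2 fold change was 0.0285, against 0.0156 over all entries. Unlike under 4OHT, Trp53 itself fell, with 83.8 and 78.5 CPM in KO against 169.7 and 156 CPM in WT libraries. Both KO libraries were below both WT libraries, and Trp53 fell (log2 -1.001, SE 0.0886, adjusted p = 7.99e-05, edgeR). That call held in 3 of the 4 fits with a library left out, and the adjusted p was 0.0501 without WT library 1. A processed copy, Trp53-ps, and other genes share 1.09% of the 75-base stretches of Trp53 transcripts.

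The feedback gene Mdm2 was higher in Mettl3 KO, with 93.3 and 83.6 CPM against 59.9 and 60.9 CPM in WT (1.47-fold, log2 0.55, adjusted p = 0.00217, edgeR). Cdkn1a had 62.4 and 47.4 CPM in KO and 45.0 and 44.2 CPM in WT and was not called (adjusted p = 0.113). Ccng1 had 150.4 and 134 CPM in KO and 156 and 157 CPM in WT, and its interval ran from -0.33 to 0.0582 on the log2 scale. Ptprv (log2 0.71) and Btg2 (0.57) were the other arrest genes that rose, while Ckap2 fell by 0.56. With each library left out in turn, the log2 fold change ran from 0.20 to 0.85 for Btg2 and from 0.47 to 0.62 for Mdm2. For Ckap2 it ran from -0.61 to -0.52. Of the apoptosis genes Phlda3 (0.60), Tnfrsf10b (0.52) and Trp53inp1 (0.45) rose and Pidd1 fell by 0.42. With a library left out, Phlda3 ran from 0.32 to 0.82 and Pidd1 from -0.53 to -0.33. Fas was not called, at 0.211 and 0.526 CPM in KO and 0.459 and 0.401 CPM in WT. In repair, Polk rose (0.43) and Xpc fell to 24.8 and 24.2 CPM in KO, against 37.2 and 38.4 CPM in WT (log2 -0.62, adjusted p = 0.00213). Xpc was not called without either WT library (adjusted p at most 0.0894).

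The largest change in the Mettl3 set among the 35 genes was that of Ddit4l, with 13.5 and 12.8 CPM in KO and 4.13 and 3.64 CPM in WT (3.39-fold, adjusted p = 0.000116, edgeR). It was called whichever library was left out. Sesn1 rose, with 14.1 and 17.4 CPM in KO and 9.29 and 12.1 CPM in WT (log2 0.56, adjusted p = 0.0345), where it had fallen under 4OHT in the Ythdc1 set. The count of 9 genes fell to 1 without WT library 1 or WT library 2. The count of 4 lower genes was 0 and 1 without WT libraries 1 and 2 and 10 and 7 without KO libraries 1 and 2. The WT libraries differed least of all pairs (3.741), and over all entries 351 and 1928 were called without WT libraries 1 and 2, against 7492 with both.

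Tested directly, the Ythdc1 set effect was higher than the Mettl3 set effect for 28 of the 35 genes and lower for 1, where 13.7% and 11.6% of 28260 entries were (25.3% in all). The median difference was 0.905 on the log2 scale, against 0.0544 over all entries. The sets share no libraries. With each of the 12 libraries left out in turn, 25 to 28 genes were higher, and Gdf15 was called in 2 of these fits, Phlda3 in 3 and Bbc3 in 10. Within the arrest group the difference was 1.79 for Plk2, 1.40 for Ccng1, 1.34 for Mdm2, 0.99 for Trp53 and 0.82 for Cdkn1a (adjusted p from 6.32e-08 to 0.000168, edgeR). For Trp53 the difference comes with a fall in Mettl3 KO and no call under 4OHT. In the apoptosis group it was 3.48 for Fas (95% interval 2.08 to 4.89), 1.94 for Perp and 1.48 for Pmaip1, and Tnfrsf10b was not called (0.15, -0.138 to 0.438). In repair Polk alone was called (0.60). Sesn1 was the 1 gene with a lower effect, by -1.26 (adjusted p = 0.00255). Ddit4l (0.63, adjusted p = 0.0573) and Btg2 (0.39, adjusted p = 0.158) were not called, but with the library number as a block both were (adjusted p = 0.0142 and 0.0322), and Gdf15 then lost its call (adjusted p = 0.0536).

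**Figure D3:**
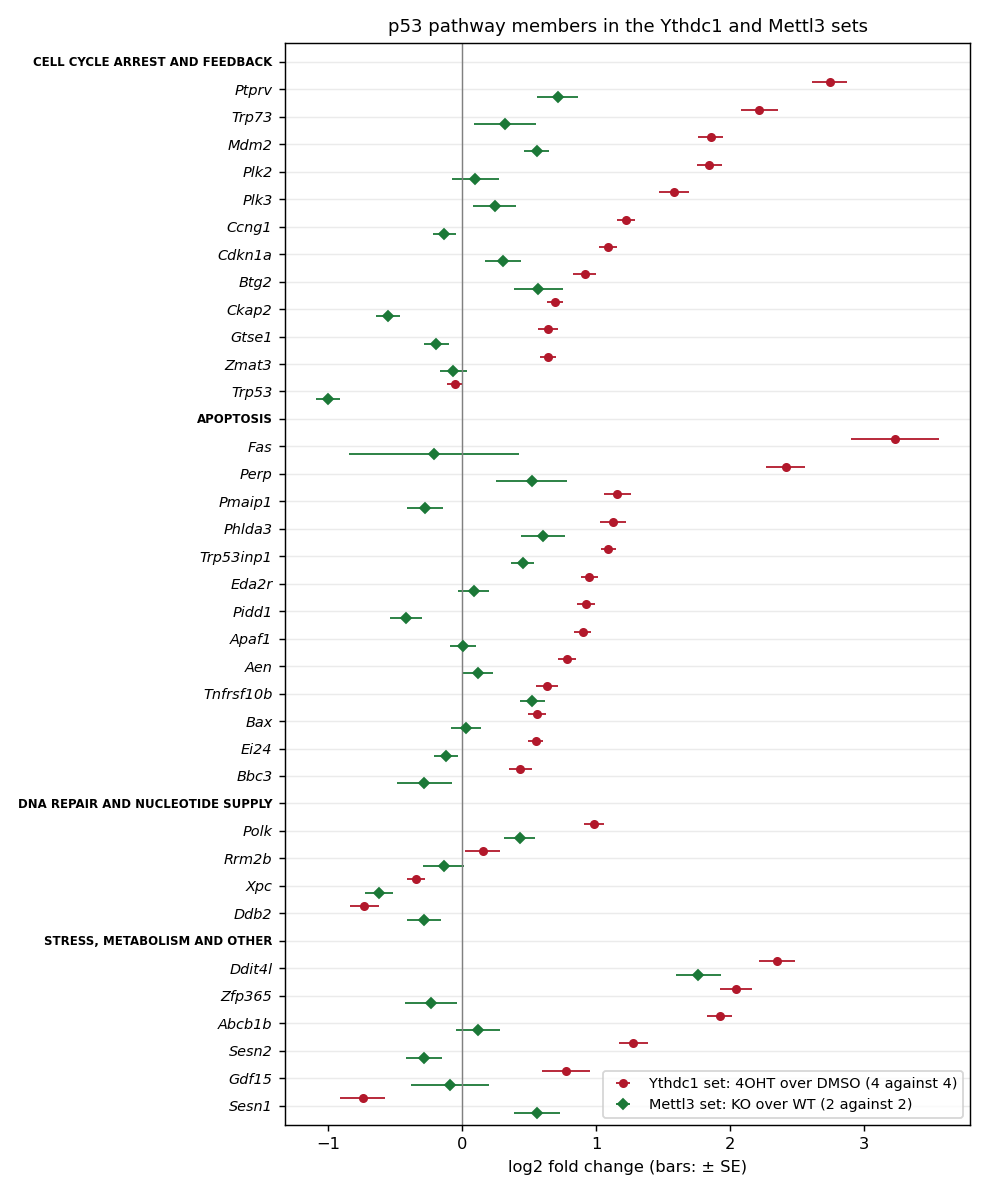
Log2 fold change of the 35 genes (horizontal axis, bars ± SE), by role, for 4OHT over DMSO in the Ythdc1 set (circles) and KO over WT in the Mettl3 set (diamonds). Trp53 stands at -0.05 in the Ythdc1 set and -1.001 in the Mettl3 set, and Sesn1 lies on opposite sides of 0 (-0.74 and 0.56).

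Other genes of the pathway were taken from 3 further lists. These lists were chosen with earlier results of these data known, so their counts are a description and no independent test. Among regulators of p53, 24 were tested in the Ythdc1 set and 7 were higher and 5 lower, where 23.7% and 21.4% of entries were. The checkpoint kinase Chek2, which phosphorylates p53, fell in each comparison, to 32.3 to 38.5 CPM under 4OHT against 56.0 to 59.3 CPM under DMSO in the Ythdc1 set (log2 -0.68, adjusted p = 7.13e-07, edgeR). Its log2 fold change was -1.05 in Mettl3 KO, -0.52 in Dux-KO and -0.51 in Dux-Het cells (adjusted p = 0.000216, 0.0441 and 0.0459). Rchy1, a ubiquitin ligase for p53, rose by 0.93 in the Ythdc1 set and 0.64 in Dux-KO cells, and the acetyltransferase Crebbp by 0.43 in the Ythdc1 set and 0.72 in Mettl3 KO. Rpl11, a ribosomal protein that can bind Mdm2, fell by 0.40 in the Ythdc1 set. Mdm4, the Mdm2 relative that inhibits p53, fell by 0.57 in Mettl3 KO and rose by 0.77 in Dux-KO cells (adjusted p = 0.00109 and 0.0429). Of 25 regulators tested in the other sets, 7 were higher and 3 lower in Mettl3 KO, 2 and 1 in Dux-KO and 0 and 1 in Dux-Het cells. Over all entries 16.4% were higher and 14.9% lower in Mettl3 KO, 5.50% and 4.36% in Dux-KO and 4.99% and 4.34% in Dux-Het cells. Trp63, the other p53 relative, had 0.773 to 0.982 CPM in Mettl3 KO and no counts in WT. In the Mettl3 set 0 of the 25 were called without WT library 1, and 1 was higher and 1 lower without WT library 2, while 5 and 9 were lower without KO libraries 1 and 2. In Dux-KO cells 0 were called without either 4OHT library or DMSO library 1 of that genotype. Without Dux-Het 4OHT library 1, 0 were lower in Dux-KO cells, without Dux-Het 4OHT library 2 or Dux-KO DMSO library 2, 1 was higher there, and without either Dux-Het DMSO library 4 were. In Dux-Het cells 0 were lower without any 1 of the 4 libraries of that genotype or either Dux-KO 4OHT library.

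Of 47 further p53 target genes in the table, 45 were tested in the Ythdc1 set and 31 were higher and 4 lower, where 23.7% and 21.4% of entries were. The costimulatory ligand Cd80 had 15.8 to 17.5 CPM under 4OHT and 1.32 to 2.16 CPM under DMSO (log2 3.30, SE 0.144, adjusted p = 1.75e-10, edgeR). Ano3, of the anoctamin family, had 33.8 to 45.6 CPM under 4OHT and 3.03 to 6.65 CPM under DMSO, and the xylulose reductase Dcxr 50.04 to 55.5 CPM under 4OHT and 10.8 to 12.7 CPM under DMSO. Arap2 rose by 1.34. In Dux-KO cells 22 were higher and 1 lower of 47 (5.50% and 4.36% of entries), and in Dux-Het cells 22 and 2 (4.99% and 4.34%). Inka2, Cd80, Dcxr and Dglucy had the smallest p in both, with Inka2 at 15.6 to 15.7 CPM under 4OHT and 1.55 to 1.56 CPM under DMSO in Dux-KO cells. In Mettl3 KO 13 were higher and 9 lower of 45, where 16.4% and 14.9% of entries were, and the smallest p were those of Steap3 (log2 2.19), Ak1 (0.88), Sesn3 (0.66) and Foxo3 (0.64). The count of 22 in Dux-KO fell to 11 and 12 without 4OHT libraries 1 and 2 and to 13 without DMSO library 1, and the 13 of the Mettl3 set to 0 and 1 without WT libraries 1 and 2. The 9 lower in the Mettl3 set fell to 0 without either WT library and were 14 without KO library 1.

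Cell cycle genes known to be lowered through p21 and DREAM moved the opposite way. Of 34, 30 were lower and 0 higher in the Ythdc1 set, where 21.4% of entries were lower, and the median log2 fold change was -0.59. Plk1, a mitotic kinase, had 61.5 to 76.9 CPM under 4OHT against 128 to 135 CPM under DMSO (log2 -0.92), and Brca1, a repair gene of S phase, had 53.4 to 69.9 CPM under 4OHT against 134 to 146 CPM under DMSO (-1.17, adjusted p = 4.71e-09, edgeR). Rrm2 (-0.87) and Bub1b (-0.82) fell as well. In Dux-KO 13 of 34 and in Dux-Het cells 14 of 34 were lower and 0 higher, where 4.36% and 4.34% of entries were lower. The G1 cyclin Ccne1 had the smallest p in both (log2 -1.28 and -1.30). These counts depended on single libraries, with 1 and 2 in Dux-KO without 4OHT libraries 1 and 2, 3 and 8 without DMSO libraries 1 and 2, and 5 in Dux-Het without either 4OHT library of that genotype. They were 7 and 9 in Dux-Het without DMSO libraries 1 and 2, and 9 without Dux-KO 4OHT library 2. In Mettl3 KO 22 of 34 were lower and 0 higher (1 and 8 lower without WT libraries 1 and 2), where 14.9% of entries were lower. The smallest p were those of Cdca3 (-1.26), Mcm5 (-0.88) and Cdc20 (-1.14), while Cdkn1a was not called. With a KO library left out, 3 of the 34 were higher (library 1) or 1 was (library 2).

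Markers of other cell states were set beside these results. The summed level of 19 two-cell-like markers was 157.4 to 327.8 CPM under 4OHT and 12.2 to 55.9 CPM under DMSO in the Ythdc1 set, and all 17 tested rose. It was 172 to 193 CPM in Mettl3 KO and 2.27 to 2.64 CPM in WT, where 9 of the 35 p53 pathway genes rose and 4 fell. In Dux-KO cells it was 0.090 to 0.199 CPM under 4OHT and 0.135 to 0.205 CPM under DMSO, with 13 and 18 of the 19 markers at 0 in the 4OHT libraries, and there 29 of the 35 genes rose. In Dux-Het cells the sum was 103 to 128 CPM under 4OHT and 12.5 to 15.8 CPM under DMSO. The sum of 14 ESC markers was lower under 4OHT in the Ythdc1 set (1895 to 2220 CPM, against 2573 to 3021 CPM under DMSO), with 7 of 14 lower and 2 higher. The sum of 12 primitive endoderm markers was 690 to 1028 CPM under 4OHT and 418 to 540 CPM under DMSO, with 10 of 12 higher. The sum of 12 fibroblast markers was 267 to 449.5 CPM under 4OHT and 112.8 to 206.2 CPM under DMSO in that set, where 4 of 9 tested rose and 1 fell. Over all entries tested in the Ythdc1 set, 23.7% were higher and 21.4% lower. These shares were 16.4% and 14.9% in the Mettl3 set and 5.50% and 4.36% in Dux-KO cells. In Dux-KO cells fibroblast markers were at 89.6 to 92.0 CPM under 4OHT and 124 to 142 CPM under DMSO, and in Dux-Het cells at 98.3 to 139.3 CPM under 4OHT and 69.4 to 131.1 CPM under DMSO. The ESC marker sum was also lower under 4OHT, without overlap, in Dux-KO (2065 to 2235 CPM, against 2682 to 3194 CPM under DMSO) and Dux-Het cells (2094 to 2585 CPM, against 2924 to 3260 CPM under DMSO). In Mettl3 KO it was 1940 to 1948 CPM, against 2124 to 2148 CPM in WT. Primitive endoderm markers summed to 465 to 573 CPM in Mettl3 KO and 317 to 328 CPM in WT. They were at 498 to 536 CPM under 4OHT and 426 to 503 CPM under DMSO in Dux-KO, and at 458 to 504 CPM under 4OHT and 323 to 450.4 CPM under DMSO in Dux-Het cells. The part of these cell states in the p53 pathway changes was not tested.

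**Figure D4:**
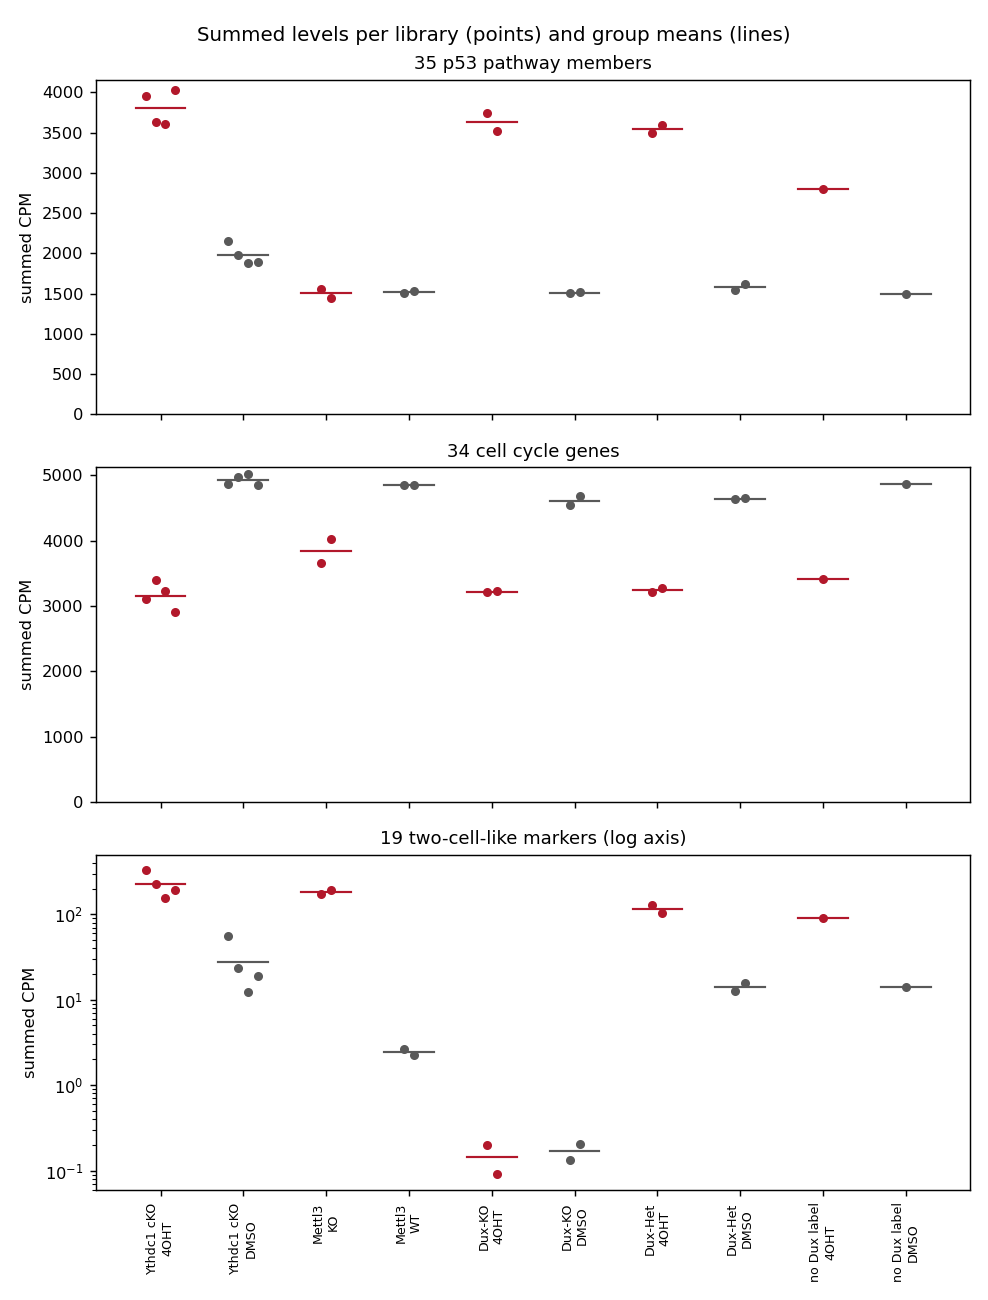
Summed level in CPM per library (points) with group means (lines) of the 35 genes (top), 34 cell cycle genes (middle) and 19 two-cell-like markers (bottom, log axis), 4OHT or KO in red and DMSO or WT in grey. The 35 genes are at 3521 to 3742 CPM in Dux-KO libraries under 4OHT, where two-cell-like markers are at 0.090 to 0.199 CPM, and at 1446 to 1560 CPM in Mettl3 KO libraries, where those markers are at 172 to 193 CPM.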

How the data were processed

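RNA was measured by RNA-seq after ribosomal RNA removal in 22 libraries. The authors deposited unscaled counts of 44749 entries. GENCODE vM21 holds 43672 of the names, and the other 1077 are repeat families or unmatched. The authors also deposited a normalized signal, each count divided by 1 factor per library (largest relative deviation 5.44e-15 over 34971 complete lines), used as an alternative scaling. Per the submitters' processing notes, the tools included RSEM, Bowtie2, bcl2fastq and STAR 2.7, with the mm10 build. The sources used here do not say which tool made the counts, from which annotation, or whether strand was used. The titles gave the groups, because the genotype and treatment fields of the 10 Dux set samples are shifted by 1 sample against the titles. No label says that replicates are separate cultures, and the p-values therefore cover the spread of these libraries alone, which may be technical.

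Counts were tested with edgeR 4.0.16 in R 4.3.3 (filterByExpr, TMM, glmQLFit, glmQLFTest, Benjamini-Hochberg adjustment over all entries, threshold 0.05). All adjusted p-values come from this test. An SE is the size of the log2 fold change divided by the root of the F statistic, and 95% intervals use the total degrees of freedom. The Ythdc1, Mettl3 and Dux sets were fitted apart, and differences between sets in joint fits. The pair with no Dux label used a pseudocount of 0.5 CPM. The scripts were tested on simulated counts with known changes. Alternatives were DESeq2 1.42.0, RLE scaling, the authors' factors, no filter, genes alone, the library number as a block and each library left out. In the Ythdc1 set, deviations from the group means correlated between same-numbered 4OHT and DMSO libraries (0.325, 0.138, 0.366 and 0.339 over 9337 entries for numbers 1 to 4). Between different numbers the correlations ran from -0.275 to 0.0879. By these data the numbers pair the libraries, least clearly for number 2. The main fits did not use this pairing. The members and lists were chosen with earlier results of these data known. All 35 genes were accounted for, and of each other list at most 4 called genes per comparison, those with the smallest p, were named, with the targeted genes. The listed symbols Rfwd2, 9630033F20Rik, 9030617O03Rik and Fam212b were not found in the table. The same genes may be there under other names. Positions are from GENCODE vM21 and RefSeq on GRCm38.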

Additional observations from a re-analysis of the deposited data

Results flagged for a closer look

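Within the groups of 4, 5 of 70 gene and group combinations held 1 library far from the other 3, where chance marks about 1 in 20. Sesn1 had 7.263 CPM in DMSO library 1 and 12.18 to 12.49 CPM in the others. Trp73 had 3.218 CPM in DMSO library 4 against 4.638 to 4.892 CPM. Abcb1b had 34.57 CPM in DMSO library 3 against 45.32 to 46.97 CPM. Rrm2b had 9.702 CPM in 4OHT library 4 against 7.554 to 7.818 CPM, and Polk had 62.5 CPM in that library against 52.44 to 54.08 CPM.

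The Ythdc1 set effect differed from the Mettl3 set effect by a direct edgeR test for 29 genes. On the log2 scale the difference was 3.48 for Fas, 2.32 for Zfp365, 2.07 for Ptprv, 1.94 for Perp, 1.94 for Trp73, 1.85 for Abcb1b, 1.79 for Plk2 and 1.60 for Sesn2. It was 1.48 for Pmaip1, 1.40 for Ccng1, 1.39 for Pidd1, 1.38 for Plk3, 1.34 for Mdm2 and 1.29 for Ckap2. It was 0.99 for Trp53, 0.94 for Apaf1, 0.91 for Gdf15, 0.91 for Eda2r, 0.88 for Gtse1, 0.82 for Cdkn1a, 0.76 for Bbc3 and 0.75 for Zmat3. It was 0.71 for Aen, 0.71 for Ei24, 0.68 for Trp53inp1, 0.60 for Polk, 0.57 for Bax and 0.56 for Phlda3, and -1.26 for Sesn1. With each of the 12 libraries left out in turn, Gdf15 was called in 2 fits (adjusted p up to 0.229), Phlda3 in 3 (up to 0.327) and Bbc3 in 10 (up to 0.111), and the others in all 12. The Ythdc1 set effect differed from the mean Dux-KO and Dux-Het effect for Btg2 (-0.75), Trp53inp1 (-0.71), Mdm2 (-0.68) and Cdkn1a (-0.66).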

How the results depend on the processing

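Over the 35 genes and 10 comparisons, 2135 log2 fold changes were recomputed under other tools, scalings, filters or the block, and none changed sign where called. Of these, 19 lost and 11 gained a call. With a library left out, 132 of 3570 values lost and 26 gained a call, mostly where 2 libraries faced 2. The labels do not say in any set what the library number marks. The correlation of same-numbered libraries was 0.0766 in Mettl3, 0.546 in Dux-Het and 0.251 in Dux-KO. With 2 libraries per group, the value between different numbers has the same size and the opposite sign. With the library number as a block, Pmaip1 was called in Dux-Het cells (adjusted p = 0.0474, edgeR). Against the Dux mean, the block gave 1 gene higher, Sesn2 (0.47, adjusted p = 0.0481), called Abcb1b (-0.48, adjusted p = 0.0265), and gave 830 entries in place of 427. It changed no call of the 35 genes in the Ythdc1 set. No filter on low counts gave 5 higher genes in place of 9 in the Mettl3 set and 8 lower in place of 4 against the Dux mean. Without it 4319 entries were called in Dux-Het (2738 with it), 4701 in Dux-KO (2890), 272 and 124 for Dux-KO against Dux-Het under 4OHT and DMSO (81 and 10), 28 in the genotype difference (0) and 1402 against the Dux mean. DESeq2 called 2 entries in the genotype difference, 17 for Dux-KO against Dux-Het under DMSO and 1043 against the Dux mean. The median log2 ratio of the pair with no Dux label was 0.73 with a pseudocount of 2 CPM, against 0.87. Without that pair, chosen after seeing the data, 0 genes were lower in the pooled Dux set in place of 1. The cause of these shifts was not tested.

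With each library left out in turn, lowest and highest counts were as follows. Members called higher were 15 to 29 in Dux-KO, 20 to 27 in Dux-Het, 1 to 12 in Mettl3 and 0 to 1 against the Dux mean. Members called lower were 0 to 1 in Dux-KO, 0 to 10 in Mettl3, 0 to 2 in the pooled Dux set, 1 to 2 for Ythdc1 minus Mettl3 and 2 to 7 against the Dux mean. Entries called were 423 to 3645 in Dux-KO, 1254 to 2957 in Dux-Het, 351 to 9716 in Mettl3, 172 to 1120 against the Dux mean, 30 to 97 and 0 to 15 for Dux-KO against Dux-Het under 4OHT and DMSO, and 0 to 1 in the genotype difference. Low counts limit Fas, Gdf15 and Trp73, and 2 libraries per group limit the Dux and Mettl3 sets.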
